A study of Mus musculus with 4 samples.

Results

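The chitinases and chitinase-like genes described here are 5 mouse genes, Chia1, Chit1, Chil1, Chil3 and Chil4, of 18193 genes read on the arrays. They were chosen by family, by exact symbol in the platform annotation, and selected on the log2 differences between these same arrays, which were known from earlier results. The differences are therefore a description, with no test. Each gene had 1 probe set (the group of short probes that reads a transcript) annotated to it alone, and 1 further probe set was annotated to both Chil3 and Chil4.

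Chitinases cut chitin, the polymer of N-acetylglucosamine found in fungal walls, insects and crustaceans. Chia1 encodes acidic mammalian chitinase, a secreted enzyme that works at gastric pH and is made in quantity by the chief cells of the mouse stomach. Chit1 encodes chitotriosidase, the chitinase best known from human macrophages. Chil1, Chil3 and Chil4 encode secreted proteins that keep the chitinase fold but do not cut chitin. Chil1, also called BRP-39, is known from macrophages, neutrophils and inflamed epithelia. Chil3, also called Ym1, is known from macrophages and other myeloid cells, and Chil4, also called Ym2, mostly from epithelia, and both are classic targets of interleukins 4 and 13.

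RNA was measured from the gastric corpus epithelium of wild-type mice aged 6 weeks. C57BL/6, BALB/c and FVB/N animals were used, and which strain or sex went into which pool is not labelled. The 4 groups were vehicle at 2.5 days, tamoxifen at 12 hours, tamoxifen at 2.5 days and tamoxifen at 4.5 days, each 1 array of RNA pooled from 3 mice. Tamoxifen, a selective estrogen receptor modulator, was given into the peritoneum at 5 mg per 20 g of body weight to bring about SPEM (spasmolytic polypeptide-expressing metaplasia), by injection on 1 or on 3 days, without a label for the schedule of each array. The vehicle was 90% sunflower seed oil with 10% ethanol. With 1 pool per group the spread between mice is unknown and no p-value is given, and the same vehicle array enters all 3 comparisons with vehicle. That array is from 2.5 days, so the arrays at 12 hours and 4.5 days have no vehicle of their own time. In those comparisons tamoxifen cannot be told apart from time since injection.

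Levels are log2 RMA values, so a difference of 1 is 2-fold, and the number of arrays limits the precision. Array medians were 5.30 to 5.34. As gauges of noise, 18 hybridisation controls differed from vehicle by a mean of 0.045, -0.13 and -0.16 on the 3 tamoxifen arrays in order of time, and 27 poly-A controls differed from vehicle with SDs of 0.17 to 0.20 and by up to 0.72. The robust SD over expressed genes was 0.27, 0.35 and 0.39 for these arrays against vehicle, and 0.15 for the closest pair, 2.5 and 4.5 days. A gene counted as expressed in a comparison where it reached the array median on the brighter of the 2 arrays. Corpus markers were high in vehicle, with the proton pump gene Atp4b at 14.19 and the pepsinogen gene Pgc at 14.28, but so was the smooth muscle gene Acta2, at 13.71, so the pools were not epithelium alone by these markers. On the 12-hour array, 9 of 9 measured pancreatic acinar genes were at least 2-fold above vehicle, with a list median of 7.17, and 8 of 9 squamous forestomach genes were at least 2-fold below it, with a median of -4.95.

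The members moved at different times. Chia1 was 6.96-fold below vehicle at 4.5 days, Chil3 was 2.84 above it on the log2 scale at 2.5 days and 0.26 above it at 4.5 days, and Chil4 was 3.04-fold above it at 12 hours. Chit1 and Chil1 stayed within 2-fold of vehicle on every array.

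**Figure D1:**
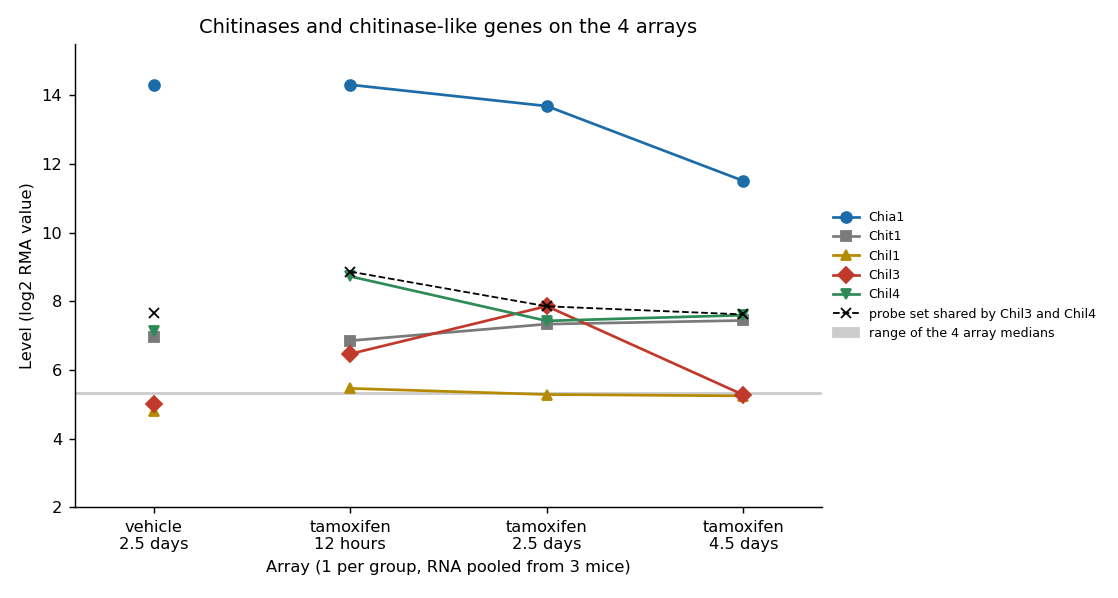
Level (log2 RMA value) of the 5 genes on each of the 4 arrays, 1 array per group; lines join the tamoxifen arrays in order of time, crosses mark the probe set shared by Chil3 and Chil4, and the grey band is the range of the array medians. Chia1 is at 14.31 in vehicle and 11.51 at 4.5 days, and Chil3 peaks at 7.86 at 2.5 days.

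At 12 hours all 5 members were expressed, and 2 of them, Chil3 and Chil4, were at least 2-fold above vehicle, where 0.996% of 12253 expressed genes were; none was at least 2-fold below, against a background of 1.92%. The median difference of the members was 0.65, and that of all expressed genes -0.037. At 2.5 days 4 members were expressed and 1, Chil3, was at least 2-fold higher, against 3.32% of 12295 genes, with none lower against 1.94%. At 4.5 days 3 members were expressed and 1, Chia1, was at least 2-fold lower, against 2.72% of 12303 genes, with none higher against 3.8%. The member medians at these 2 times, 0.36 and 0.44, sat beside 0.021 and -0.0050 for all expressed genes. Between 12 hours and 2.5 days, Chil3 was past 2-fold upward and Chil4 downward, where 2.58% and 0.655% of 12205 genes were. Between 2.5 and 4.5 days, Chia1 and Chil3 were past 2-fold downward, where 0.182% of 12117 genes were, and no member was past it upward, where 0.248% were. Because the family was drawn up with these contrasts in view, nothing is read from these shares.

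**Figure D2:**
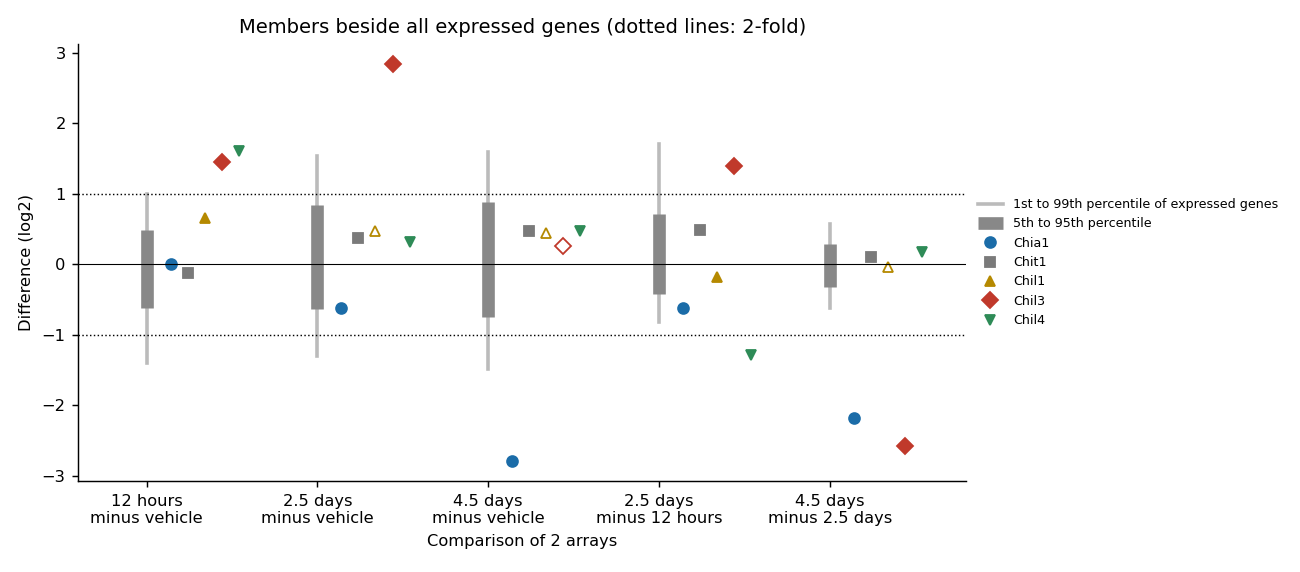
Difference in log2 level for each of 5 comparisons between 2 arrays; markers are the 5 genes, filled where expressed and open where not, and grey bars span the 1st to 99th and 5th to 95th percentiles of all expressed genes. Dotted lines mark 2-fold. Chil3 at 2.5 days minus vehicle (2.84) and Chia1 at 4.5 days minus vehicle (-2.80) lie outside the bars.

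Chia1, the gastric chitinase, stood at 14.31 in vehicle, 14.31 at 12 hours, 13.69 at 2.5 days and 11.51 at 4.5 days. The first 2 arrays were alike to within 0.0003, the 2.5-day array was lower, and the 4.5-day array was the lowest by far. Against vehicle the differences were 0.0003, -0.62 and -2.80, and most of the decline fell in the last step, -2.18 between 2.5 and 4.5 days. In that step 3 of 12117 expressed genes had a more negative difference than Chia1, and at 4.5 days against vehicle 19 of 12303 did. In these pools fewer chief cells and less Chia1 RNA per cell cannot be told apart. In vehicle and at 12 hours the probe set lay at the 99.98th percentile of the array, near the top of the scale, where differences can be compressed. Over the alternatives run, the 4.5-day difference came nearest to vehicle, at -2.64, with centring on the hybridisation controls.

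Chia1 is a chief cell product, and the chief cell list (without Chia1) moved on the same arrays. Its 6 genes had medians of -0.21, -1.48 and -2.17 at the 3 times in order, with 0, 1 and 1 of 6 at least 2-fold higher and 2, 4 and 4 lower. Pepsinogens are encoded by Pga5 and Pgc, which differed from vehicle by -2.29 and -1.27 at 2.5 days, when Chia1 was at -0.62. By 4.5 days they were at -3.41 and -2.44, and the intrinsic factor gene Cblif was at -2.39. Bhlha15, the transcription factor that builds zymogen granules, was already at -1.95 at 12 hours, where Chia1 matched vehicle. Rab3d, a granule GTPase, stayed at 0.0076, -0.18 and -0.33, and Tnfrsf19 was the member higher at the later times, at 1.04 and 1.41. Parietal cell genes were lower from the first array on, with 8 of 10 at least 2-fold lower at each time, including 12 hours. These timings were not tested against each other. The part of the acinar and squamous differences of the 12-hour array in its chief and parietal values was also not tested.

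By the root mean square gap between the 3 differences from vehicle, over 12445 genes above an array median on at least 1 array, the 5 genes nearest to Chia1 were Pla2g1b (gap 0.33), Pgc (0.44), Clps (0.51), Sst (0.54) and Cblif (0.67). All 3 differences share the vehicle array, so likeness is a description of these arrays. Pla2g1b encodes a secreted phospholipase and Clps colipase, both known as pancreatic products, and they were at 14.61 and 14.67 in vehicle. Of 9 measured pancreatic acinar genes, 4 were at or above the array median in vehicle, with Cela1 at 11.18 and Cel at 7.46. Cela2a (4.29), Cpa1 (4.88), Ctrl (5.12), Cpb1 (5.29) and Ctrb1 (5.31) were below it. At 12 hours, on the array where pancreatic acinar genes were far above vehicle, Pla2g1b and Clps differed by -0.037 and -0.025, but with a highest value of 14.85 on any array there was little room above vehicle for a rise to show. At 4.5 days they were at -2.23 and -1.92. Sst, which encodes the hormone somatostatin of D cells, was at -0.15, -0.89 and -1.92. The part of pancreatic RNA in the 12-hour value of Chia1 was not tested.

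Chil3 stood at 5.02 in vehicle, 6.47 at 12 hours, 7.86 at 2.5 days and 5.28 at 4.5 days. Vehicle and 4.5 days were both below the array median and close to each other, and the 2 earlier tamoxifen arrays were above it. The differences from vehicle were 1.45, 2.84 and 0.26, that is 2.73-fold, 7.17-fold and 1.19-fold in the deposited values. As vehicle was below the array median, these folds rest on a dim value, and with 16 added on the linear scale the 2.5-day difference was 2.36. At 2.5 days only 3 of 12295 expressed genes were further above vehicle. The step from 2.5 to 4.5 days, -2.58, was the most negative of all 12117 expressed genes, on the pair of arrays that were otherwise the closest. With the filter at the 75th percentile of the array Chil3 dropped out at 12 hours, where it was not bright enough, and was still called at 2.5 days.

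Chil4, its neighbour and near copy, stood at 7.12 in vehicle, 8.73 at 12 hours, 7.43 at 2.5 days and 7.60 at 4.5 days. The 12-hour array was high and the other 3 lay within 0.47 of each other. The differences from vehicle were 1.60, 0.31 and 0.47, and the step from 12 hours to 2.5 days was -1.30, where Chil3 had 1.39. At 12 hours 52 of 12253 expressed genes were further above vehicle, on the array with the acinar and squamous differences given above, whose part in the Chil3 and Chil4 values was not tested.

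The probe set annotated to both genes stood at 7.67 in vehicle, 8.87 at 12 hours, 7.86 at 2.5 days and 7.62 at 4.5 days. Its differences from vehicle, 1.19, 0.18 and -0.054, were past 2-fold at 12 hours only, as those of the Chil4 probe set were, and were within 2-fold at 2.5 days, where Chil3 was at its highest. The 2.5-day value of Chil3 therefore rests on 1 probe set. Signals of near-identical copies can mix on an array, so the split between Chil3 and Chil4 is uncertain.

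In the RefSeq annotation Chia1, Chil3 and Chil4 follow one another as consecutive protein-coding genes on chromosome 3, and Chit1 and Chil1 are consecutive on chromosome 1. The 250 bases before the annotated start of Chil3, Chil4 and Chia1 are shown (RefSeq, build GRCm38.p6, written 5′ to 3′ on the gene's strand) because the first pair are so alike while their arrays peaked at different times. Capitals mark the motifs searched on both strands: the STAT type TTCNNNGAA, the STAT6 type (the same letters with 1 more free base between them), the C/EBP type TTGCNNAA, the PU.1 type GAGGAAG and the TATA box TATAAA, the last added after the values were seen. All 5 members had 1 promoter in the table.
Chil3, chr3:106167565-106167814, minus strand: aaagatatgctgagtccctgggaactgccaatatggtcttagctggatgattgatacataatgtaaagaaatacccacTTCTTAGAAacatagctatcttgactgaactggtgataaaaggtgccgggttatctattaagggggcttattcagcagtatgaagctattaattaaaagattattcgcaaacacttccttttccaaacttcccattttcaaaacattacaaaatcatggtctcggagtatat
Chil4, chr3:106219480-106219729, minus strand: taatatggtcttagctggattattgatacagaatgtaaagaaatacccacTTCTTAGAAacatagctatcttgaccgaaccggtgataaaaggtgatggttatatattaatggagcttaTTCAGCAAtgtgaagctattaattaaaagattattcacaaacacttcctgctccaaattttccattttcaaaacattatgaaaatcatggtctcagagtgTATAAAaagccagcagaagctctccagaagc
Chia1, chr3:106113132-106113381, plus strand: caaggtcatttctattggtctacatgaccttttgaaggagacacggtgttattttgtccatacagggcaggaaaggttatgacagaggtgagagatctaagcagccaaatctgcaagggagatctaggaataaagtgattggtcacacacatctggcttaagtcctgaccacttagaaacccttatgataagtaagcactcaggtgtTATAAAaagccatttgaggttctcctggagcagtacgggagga

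A local alignment of the Chil3 and Chil4 windows ran over 222 columns with 201 identical bases, 19 mismatches and 2 gaps, or 90.5% identity. Chia1 and Chil4 aligned over 71 columns at 71.8%. The STAT type match, TTCTTAGAA, was the same in Chil3 and Chil4, ending 164 and 192 bases before the annotated start, and 7.02% of 32851 promoters of this length hold such a match. The C/EBP type match lay on the minus strand of Chil4, in capitals as TTCAGCAA, and was not found in the Chil3 window; 9.56% of promoters hold 1. The TATA box was found in Chil4 and Chia1, ending 26 and 38 bases before the start, against 12.4% of all promoters. In the alignment, base 250 of Chil3, the last of its window, pairs with base 222 of Chil4. That base lies within the Chil4 TATA box, which begins at base 220. The Chil3 window as searched is thus cut off at that place, so a TATA box there could not be found. Bases after the annotated start were not searched. The unlike distances of the STAT type match also follow from where each start is annotated. The STAT6 and PU.1 types, in 5.85% and 10.6% of promoters, matched no member. None of the motifs was found in the windows of Chit1 and Chil1. These are matches of letters and show no binding.

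Among cell type markers, the neutrophil list gave the gene nearest to Chil3. S100a8, a calcium-binding protein of neutrophils and monocytes, had a gap of 0.27 and stood at 4.56 in vehicle, 5.92 at 12 hours, 7.33 at 2.5 days and 5.27 at 4.5 days. Its differences were 1.36, 2.77 and 0.71 beside 1.45, 2.84 and 0.26 for Chil3. Next came the acute phase gene Saa3 (gap 0.57), the siderophore-binding gene Lcn2 (0.77), the early growth response transcription factor gene Egr2 (0.80) and the mucosal scavenger receptor gene Dmbt1 (0.81). Lcn2 differed by 2.07, 1.97 and -0.53, so it too was back at or below vehicle by 4.5 days.

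Of the 10 measured neutrophil genes, 5, 5 and 4 were expressed at the 3 times, and 2, 3 and 0 of these were at least 2-fold higher, with medians over the measured genes of 0.25, 0.14 and -0.20. The genes past 2-fold were S100a8 and Lcn2 at 12 hours, joined by S100a9 (1.12) at 2.5 days. Genes that define neutrophils and their precursors, went both ways: Mpo, Elane, Ngp, Mmp8 and the receptor gene Cxcr2 lay below the array median on all 4 arrays, Ltf above it on all 4 with differences of -0.45, 0.68 and 0.74, and Camp above it in vehicle and at 12 hours only. The log2 of the list's summed level was 8.39 in vehicle, 9.05 at 12 hours, 9.48 at 2.5 days and 8.50 at 4.5 days. The part of neutrophils in the Chil3 values was not tested.

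Macrophage and monocyte genes, read in the same way, had their highest median at 2.5 days. Of 10 expressed genes 1, 5 and 2 were at least 2-fold higher at the 3 times, and the medians of the 11 measured were 0.30, 0.99 and 0.76. Cd14 was the 1 at 12 hours, and it differed by 1.29, 1.16 and 1.46. Cd68, a lysosomal protein of macrophages, differed by 0.84, 1.55 and 0.82, and the complement gene C1qc by 0.35, 1.11 and 0.90. Lyz2, the myeloid lysozyme, was at 0.066, 1.005 and 1.38, highest at 4.5 days, when Chil3 was back near vehicle. Adgre1 and Csf1r, which encode F4/80 and the receptor of the macrophage growth factor, stayed between -0.36 and 0.27. The log2 summed level of the list was 11.92, 12.05, 12.64 and 12.78 from vehicle to 4.5 days, and its part in the Chil3 values was not tested. Of 5 measured eosinophil genes 1, Alox15, was expressed and none passed 2-fold, and the granule genes Prg2 and Epx were below the array median throughout.

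**Figure D3:**
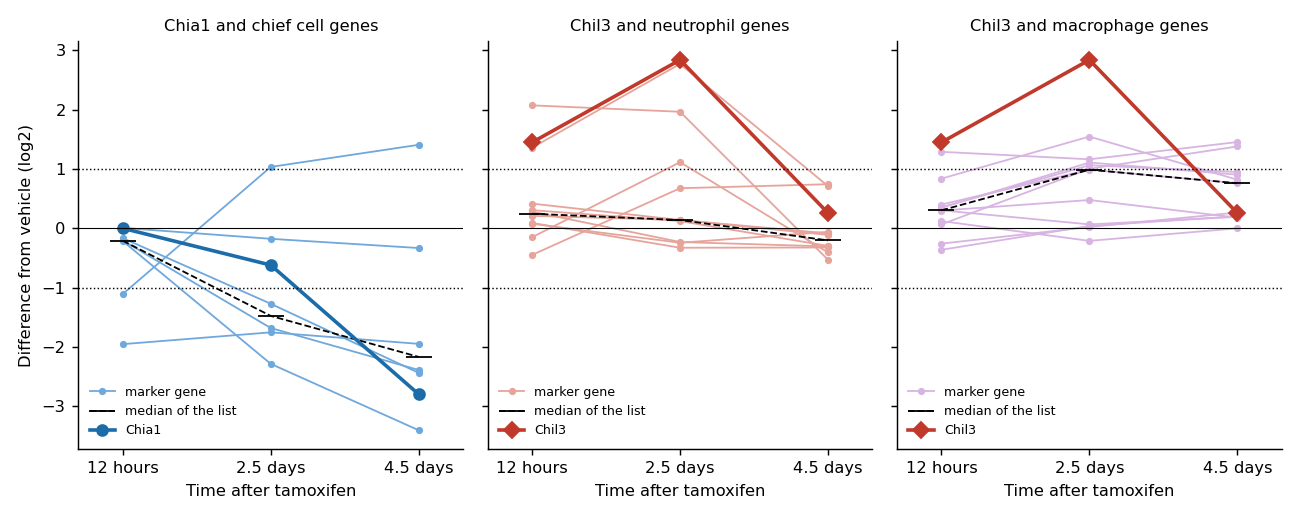
Difference from vehicle (log2) at the 3 times after tamoxifen for Chia1 beside 6 chief cell genes, and for Chil3 beside 10 neutrophil and 11 macrophage and monocyte genes; thin lines are single genes and dashed lines the list medians. Chia1 is at 0.0003, -0.62 and -2.80, and Chil3, at 2.84 at 2.5 days, lies far above both list medians, with S100a8 at 2.77 beside it.

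None of the 5 genes nearest to Chil4 was among the 5 nearest to Chil3. Sox4, a transcription factor of progenitor cells, had a gap of 0.10, and Atf3 (0.18), Gadd45b (0.19), Hmox1 (0.21) and Dusp4 (0.24) are induced early in stress and growth factor signalling. Sox4 differed by 1.72, 0.43 and 0.50 at the 3 times, Atf3 by 1.48, 0.57 and 0.36, and Hmox1 by 1.91, 0.45 and 0.32, beside 1.60, 0.31 and 0.47 for Chil4. The mucous neck and SPEM list had 2, 5 and 7 of 14 measured genes at least 2-fold higher and 1, 0 and 1 lower, with medians of 0.0035, 0.59 and 0.96. The 4 members with the largest differences, Slc7a11 (2.33, 2.71 and 3.42), Mmp12 (1.96, 2.81 and 3.32), Cftr (-1.14, 1.15 and 2.38) and Gpx2 (0.20, 1.39 and 2.14), were highest at 4.5 days, where Chil4 was at 0.47. Other members went another way, with Dmbt1 highest at 2.5 days (0.99, 2.03 and 1.30) and Spink4 lower at the later times (0.33, -0.86 and -1.58). Among those within 2-fold of vehicle at each time were Tff2 (-0.087, -0.24 and -0.063), Gkn3 (-0.33, -0.47 and 0.13) and Agr2 (-0.69, -0.40 and -0.12).

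**Figure D4:**
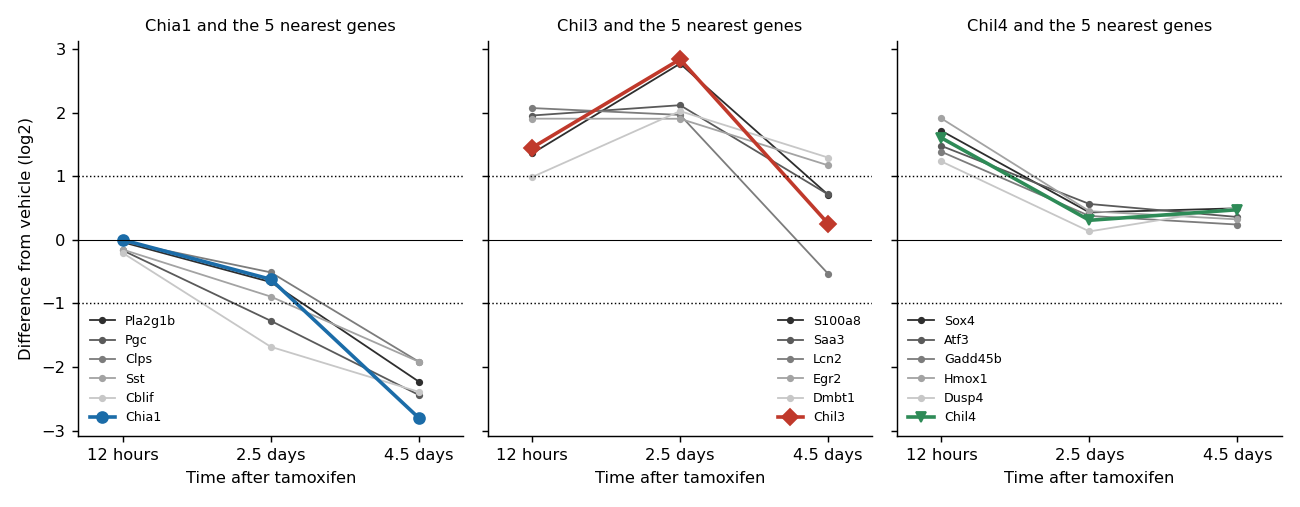
Difference from vehicle (log2) at the 3 times after tamoxifen for Chia1, Chil3 and Chil4 (coloured), each with the 5 named genes nearest to it by root mean square gap (grey, darkest nearest); dotted lines mark 2-fold. S100a8 tracks Chil3 with a gap of 0.27 and Sox4 tracks Chil4 with a gap of 0.10.

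Chit1 stood at 6.97 in vehicle, 6.86 at 12 hours, 7.34 at 2.5 days and 7.44 at 4.5 days, and its cell source in these pools was not tested. Vehicle and 12 hours were the low arrays and the later ones the high ones, with differences from vehicle of -0.12, 0.36 and 0.47. These values lay between the 36.9th and the 85.1st percentile of expressed genes in their comparisons. Chil1 stood at 4.81, 5.46, 5.29 and 5.25, lowest in vehicle, with differences of 0.65, 0.48 and 0.44. Only its 12-hour value was above the array median, and there the difference, 1.57-fold, was at the 97.4th percentile of expressed genes. With 16 added on the linear scale, which damps dim genes, the 12-hour difference of Chil1 was 0.45, and the 4.5-day difference of Chit1 was 0.42.

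Among the other measured genes of glycoside hydrolase family 18, none passed 2-fold against vehicle. Chid1, a lysosomal member, differed by -0.66, -0.15 and -0.21 with 1 probe set and by -0.43, -0.32 and -0.41 with the other. Ctbs, the lysosomal chitobiase, was at 0.050, 0.42 and 0.14 with the brightest of its 3 probe sets. Ovgp1, the oviduct member, was below the median on every array. Chil5 and Chil6, which lie beside these genes on chromosome 3, are not analysed here.

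Beyond the family, other genes that act on N-acetylglucosamine were read. Of 10 measured, 0, 2 and 2 were at least 2-fold higher at the 3 times and none lower, with medians of 0.075, 0.030 and 0.018. The 2 were the lysozyme genes Lyz1 (1.13 at 2.5 days and 1.57 at 4.5 days) and Lyz2, whose products cut bacterial walls, and Lyz2 was also in the macrophage list. Hexa, a lysosomal hexosaminidase subunit, differed by -0.34, -0.26 and -0.35, and the kinase gene Nagk by -0.28, -0.38 and -0.64.

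Among reported receptors of chitin or of chitinase-like proteins, 6 of 11 measured genes were expressed at each time, with 0, 1 and 2 at least 2-fold higher and none lower. Clec7a, which encodes dectin-1, a receptor of fungal glucans on myeloid cells, stood at 6.84 in vehicle, 7.39 at 12 hours, 8.96 at 2.5 days and 9.59 at 4.5 days, differences of 0.55, 2.12 and 2.74. Cd44 was at 0.093, 0.68 and 1.04 and was also in the SPEM list. Il13ra2, a receptor reported for the Chil1 protein, was below the median on all arrays, and its partner Tmem219 differed by -0.23, -0.11 and -0.25.

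Interleukins 4 and 13 induce Chil3 and Chil4 in other tissues, so their pathway is given beside them. Il4, Il5, Il13, Il25, Tslp and Gata3 were below the array median on all 4 arrays. The other 4 measured genes were expressed. Il33, an alarmin of epithelial and stromal cells, was at -1.28, 0.73 and 1.76 and stood at 11.36 at 4.5 days, and Il4ra, Il13ra1 and Stat6 stayed between -0.10 and 0.57. Of genes raised with type 2 signalling elsewhere, 12 measured and 9 expressed at each time, 0, 1 and 0 were at least 2-fold higher and 1, 0 and 0 lower. The 1 higher was the macrophage lectin gene Clec10a, at 0.85, 1.40 and 0.85. The 1 lower was Arg1, an arginase gene known from alternatively activated macrophages, at -2.38, 0.31 and -0.87. The 12-hour array is the one with the acinar and squamous differences, whose part in the Arg1 and Il33 values was not tested. Retnla, which often accompanies Chil3, stood at 8.25 in vehicle and differed by 0.15, -0.72 and -0.42.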

How the data were processed

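The submitters' processing notes name RMA and Partek, without versions. The values the authors deposited are on a log2 scale for 45101 probe sets on 4 arrays; the log base was inferred from their range, 2.06 to 14.85. RMA sets all arrays to 1 distribution, so a change common to most genes is lost. Per the platform annotation 34945 probe sets other than controls had exactly 1 gene symbol, giving 18193 genes; the probe set of highest mean stood for each gene. Gene IDs of 34741 probe sets matched RefSeq, with no symbol changed. Differences of log2 values were counted at 1 or more, and the counting was tested on simulated arrays.

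The 5 members and all gene lists were chosen with earlier results of these data known. Named genes were the members, up to 4 genes of each list with the largest difference, and the 5 genes nearest to each member past 2-fold; other genes were named after their values were seen. Promoters were aligned with Biopython 1.88 in Python 3.11.15. Alternatives were other filters, other centring, a constant of 16 added on the linear scale and other probe sets.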

Additional observations from a re-analysis of the deposited data

How the results depend on the processing

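No paired analysis was possible because each group held 1 array, and no array could be left out of a comparison of 2. A difference was counted as moved when it changed by more than the robust SD of the closest pair of arrays, 0.15. Every member had 1 probe set of its own, so the mean over probe sets gave no alternative for them. Of 85 recomputed member differences, 61 moved by less than that and 24 by more, and 5 changed sign. Of these 1 was past 2-fold: Chil3 between 12 hours and 2.5 days, -1.01 with the probe set shared with Chil4, an alternative chosen after seeing the data. That probe set also gave 1.19, 0.18 and -0.054 against vehicle and -0.24 in the last step, which turned the small differences of Chil3 and Chil4 at 4.5 days and of Chil4 in the last step; the cause was not tested. The fifth was Chia1 at 12 hours, -0.045 with centring on the hybridisation controls. Centring on the hybridisation controls gave, at 4.5 days, -2.64 for Chia1, 0.63 for Chit1, 0.60 for Chil1, 0.42 for Chil3 and 0.64 for Chil4. Between 12 hours and 2.5 days it gave -0.45 for Chia1, 0.66 for Chit1, -0.0046 for Chil1, 1.56 for Chil3 and -1.12 for Chil4. Adding 16 on the linear scale gave 0.45 and 0.32 for Chil1 at 12 hours and 2.5 days, 1.11 and 2.36 for Chil3 there, and -2.18 for Chil3 in the last step, since it damps dim genes. A filter at each array's 75th percentile tests fewer genes, and 76 genes were then at least 2-fold higher at 12 hours (122 with the array median), 271 at 2.5 days (408), 188 between 12 hours and 2.5 days (315) and 14 between 2.5 and 4.5 days (30). The other counts stayed within 1.5 times under each alternative run. Values near the array median and near the top of the scale are the least reliable.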

Other observations

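Chia1 is also known from salivary glands, so a short salivary and lacrimal list was read. Of its 4 measured genes 1 was expressed, the amylase gene Amy1, which stood at 6.80 in vehicle, 6.52 at 12 hours, 4.44 at 2.5 days and 4.42 at 4.5 days. Prol1, Smr3a and Bpifa2, products of those glands, lay below the array median on every array. Mast cell genes, which can accompany type 2 responses, had medians over the 8 measured of 0.22, 0.33 and 0.71 at the 3 times. At 4.5 days 3 of 7 expressed genes were at least 2-fold higher, the proteases Mcpt1 (3.64), Mcpt2 (2.37) and Cma1 (1.47), and 1, Kit, lower (-1.14).

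Of the remaining lists, none of the 5 surface mucous genes, 6 smooth muscle genes, 4 expressed lymphocyte genes and 4 expressed chondrocyte and fibroblast genes passed 2-fold against vehicle at any time. Smooth muscle medians were -0.39, -0.69 and -0.65, lymphocyte medians 0.049, -0.38 and -0.20, chondrocyte and fibroblast medians -0.13, 0.013 and 0.17, and surface mucous medians 0.0038, 0.0165 and 0.0275. These medians are over all measured genes of a list, 5 for lymphocytes and 6 for chondrocytes and fibroblasts.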
